A study of Homo sapiens with 8 samples.

Results

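The guides described here target 22 genes whose products start RNA polymerase transcription or carry it forward through chromatin. They were picked by gene symbol, with a pattern for Mediator subunits (MED), TBP-associated factors (TAF), general transcription factors (GTF), the TFIIH helicases, CDK7 and CDK9 with their partners, SPT family proteins (SUPT) and the PAF1 complex. Guides listed as non-essential controls were left out, which removed the 3 guides to SUPT20H. The pattern found 1487 guides on 206 splice junctions, of 46829 guides on 6735 junctions in 1250 genes in the whole table. The set is wider than Mediator and TFIID. It holds 5 Mediator genes (MED4, MED8, MED14, MED21 and MED30), 4 TFIID genes (TAF1, TAF2, TAF8 and TAF13), TFIIB (GTF2B) and 2 core TFIIH genes (ERCC3 and GTF2H3). It also holds 2 genes of the RNA polymerase I factor SL1 (TAF1B and TAF1D), 4 genes of the RNA polymerase III factor TFIIIC (GTF3C1, GTF3C3, GTF3C4 and GTF3C6), CDK9, SUPT6H, SUPT16H and RTF1.

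Mediator is the large complex that links activators bound at enhancers to RNA polymerase II at the promoter. TFIID recognises the core promoter, TFIIB helps to place the polymerase there, and TFIIH opens the DNA and also serves nucleotide excision repair. SL1 and TFIIIC do comparable work for RNA polymerases I and III, while CDK9 releases paused polymerase II, and SPT6, the FACT subunit SPT16 and RTF1 act with the elongating enzyme on nucleosomes.

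The screen used A375, an established human melanoma line, as a single clone of genotype TetO-RfxCas13d. RfxCas13d is an RNA-guided nuclease that cuts RNA, so a guide lowers a transcript and leaves the gene intact. In this clone doxycycline switches the nuclease on, and the guides came in by lentivirus. The groups were untreated cells at Day 0 and cells at Day 7, Day 14 and Day 21 under 1 ug/ml doxycycline, with 2 replicates each. The guide cassette was amplified from genomic DNA and sequenced. Each guide had a deposited log2 fold change at each of the 3 later days in each replicate relative to Day 0 in that replicate. A value below 0 means that the guide was lower than at Day 0 on the deposited scale. How the libraries were scaled is not stated, so 0 need not mark an unchanged share of the pool. Knockdown of the targets was not analysed here, and guide sequences are not printed.

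In the 6 libraries, the lowest member guide stood between -8.76 and -3.32, and the highest between 1.53 and 5.67. The median of the member guides was 0.06 and -0.02 at Day 7 and -0.22 and -0.14 at Day 21. The share of member guides at or below -1 at Day 21 was 28.7% in replicate 1 and 25.8% in replicate 2. Among the 963 non-targeting guides it was 17.2% and 16.4%, which is the background of the screen measured in the same libraries. Among guides to the other genes with a GeCKO gene score it was higher than among the members, at 33.9% and 31.7%. Across the 22 member genes the replicates had a Pearson correlation of 0.87 at Day 21 and 0.47 at Day 7, and across single member guides 0.55 and 0.27. Both replicates hold the same guides, and these correlations are given as a description.

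Of the 22 member genes, 3 fell by Day 21: GTF3C4, MED14 and SUPT6H. A gene was scored as the mean over its guides, tested against 0 with limma across all 1223 genes with at least 3 guides, and called where the p adjusted by Benjamini-Hochberg was under 0.05. The 3 called genes are 13.6% of the 22, against 20.8% of all genes called lower at Day 21. No test of that difference in shares was run, and no member gene was called higher. The test measures the spread between 2 replicates of the same guides. It does not measure the spread between guides, and how independent the replicates were is not stated. With all days in 1 fit and the replicate number as a block, 9 member genes were called at Day 21, with the 3 among them, and 51.1% of all genes were called in that fit. The block takes any replicate difference shared by the days, such as an error at Day 0, out of the spread. Without the block, such a fit treats the days of a replicate as independent. Centring on the median of all guides raises every value by 0.33 in replicate 1 and 0.28 in replicate 2, and of the 3 calls it left that of GTF3C4.

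MED14 encodes the long scaffold subunit that holds the Mediator modules together. Its gene mean was -0.10 and -0.54 at Day 7 in replicates 1 and 2, -0.82 and -1.15 at Day 14, and -1.14 and -1.37 at Day 21. Every library lay below 0, and both Day 21 libraries lay below both Day 7 libraries. The Day 21 mean was -1.25 ± 0.16 (SD, n = 2) with an adjusted p of 0.0206 in limma, over 170 guides on 23 junctions. At Day 14 the mean was -0.99 with an adjusted p of 0.0191. The gene lies on the minus strand, and its RefSeq span in GRCh38.p14 is chrX:40648305-40736159. The call did not hold with the median of the guides in place of the mean (-0.59, adjusted p 0.179) or when values were centred on all guides (-0.95, adjusted p 0.0708).

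The other Mediator genes did not pass the test at Day 21, and each has far fewer guides. MED8, a head module subunit with 16 guides, stood at -0.30 and -0.10 in the 2 replicates. MED30, a metazoan-specific subunit with 8 guides on 1 junction, stood at -0.38 and 0.21. The middle module genes MED4 and MED21 had the highest Day 21 means over the replicates, but were not the highest in replicate 1. MED21, with 16 guides, had -0.11 and 0.03 at Day 7, -0.25 and 0.23 at Day 14, and -0.09 and 0.41 at Day 21. MED4, with 9 guides, was at 0.21 and 0.25 at Day 7, at -0.27 and 0.21 at Day 14, and at -0.10 and 0.64 at Day 21. In MED4, MED21 and MED30 the 2 replicates lay on opposite sides of 0 at Day 21, so no direction can be read from their means of 0.27, 0.16 and -0.09.

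SUPT6H encodes SPT6, a histone chaperone that travels with RNA polymerase II. Its gene mean was -0.06 and -0.31 at Day 7, -0.98 and -0.85 at Day 14, and -1.17 and -1.11 at Day 21. The Day 14 and Day 21 libraries all lay below both Day 7 libraries. The Day 21 mean was -1.14 ± 0.038 (SD, n = 2) with an adjusted p of 0.0207, over 223 guides on 30 junctions of the plus strand within chr17:28662205-28702679 (RefSeq span, GRCh38.p14). As with MED14, the call was lost with the median of the guides (-0.60, adjusted p 0.154) and when values were centred on all guides (-0.83, adjusted p 0.0647).

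SUPT16H, the SPT16 subunit of the FACT histone chaperone, had the fifth lowest mean but did not pass. It stood at 0.06 and -0.07 at Day 7, at -0.48 and -0.57 at Day 14, and at -0.74 and -0.48 at Day 21, with an adjusted p of 0.0813 over 144 guides. All 4 later libraries were below both Day 7 libraries. SSRP1, the other FACT subunit, is outside the symbol pattern. It had -0.15 and -0.09 at Day 21 over 93 guides, with an adjusted p of 0.604. RTF1, a PAF1 complex subunit that promotes ubiquitination of histone H2B, stood at -0.39 and -0.55 (adjusted p 0.119). CDK9, the kinase of P-TEFb, stood at 0.35 and -0.09 over 30 guides, with the replicates on opposite sides of 0.

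GTF3C4 encodes a subunit of TFIIIC, the factor that binds promoters within tRNA genes. It had the lowest mean of the set, but only 4 guides on 1 junction, chr9:132670955-132677976. Its mean was -0.25 and -0.36 at Day 7, -1.83 and -0.94 at Day 14, and -2.19 and -2.14 at Day 21. The Day 21 mean was -2.17 ± 0.036 (SD, n = 2) with an adjusted p of 0.0107. The replicates were close, but the 4 guides were not. At Day 21 guide 3 read -6.68 and -6.38, guide 2 read -2.02 and -0.87, guide 4 read -1.01 and -1.21, and guide 1 read 0.95 and -0.09. Without guide 3 the mean of the other 3 was -0.70 and -0.73, a value computed after the guides were seen. The spread between guides does not enter the gene-level p, and with the median of the guides (-1.28, adjusted p 0.100) the call was lost.

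The other TFIIIC genes did not pass. GTF3C3 stood at 0.17 and -0.08 at Day 7, at -0.40 and -0.10 at Day 14, and at -0.91 and -0.40 at Day 21 (adjusted p 0.107, 40 guides). Its Day 21 libraries lay below both Day 7 libraries, with an SD between replicates of 0.36, against 0.16 in MED14. In the whole table, the gene nearest to 0 among those called lower at Day 21 stood at -0.73. The GTF3C3 mean of -0.66 was nearer to 0 than that. GTF3C1, the largest TFIIIC subunit and the gene with the most member guides, 240 on 32 junctions, stood at -0.14 and 0.01. GTF3C6 stood at 0.07 and 0.01 over 24 guides. Both means were nearer to 0 than their standard errors, 0.147 for GTF3C1 and 0.142 for GTF3C6.

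No TFIID gene passed the test at Day 21, but TAF2 was called under alternative settings given below. TAF2, a subunit that contacts the initiator element of promoters, was lowest with -0.56 and -0.49 over 119 guides, and an adjusted p of 0.0877. TAF1, the largest TFIID subunit, was highest. It stood at 0.08 and -0.01 at Day 7, at 0.09 and 0.20 at Day 14, and at 0.14 and 0.14 at Day 21, over 44 guides with an adjusted p of 0.549. TAF8 stood at -0.07 and 0.08 over 39 guides. TAF13, with 6 guides on 1 junction, stood at -0.21 and 0.45. TBP, the TATA-binding core of TFIID, is outside the pattern and stood at -0.17 and -0.03 over 39 guides (adjusted p 0.679).

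The remaining initiation factors did not pass either. ERCC3, the XPB translocase of TFIIH, stood at -0.36 and -0.33 over 87 guides, with an SD of 0.020 between replicates and an adjusted p of 0.184. GTF2H3, the p34 subunit of TFIIH, stood at -0.66 and -0.04 over 37 guides. GTF2B stood at -0.24 and -0.10 over 36 guides. For SL1, TAF1D stood at -0.27 and -0.34 over 16 guides, and TAF1B at -0.04 and 0.08 over 84 guides. TAF1D had its lowest values at Day 14, with -0.43 and -0.49 (adjusted p 0.0795).

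Going down the order of the Day 21 means, GTF3C4, MED14 and SUPT6H come first. The replicate ranges of MED14 and SUPT6H overlap, so these neighbours cannot be ordered, and the same holds for GTF3C3, SUPT16H, TAF2 and RTF1. At an unadjusted p under 0.05, 7 members passed at Day 21: the 3 called genes with SUPT16H, TAF2, GTF3C3 and RTF1. SUPT16H, TAF2, GTF3C3 and RTF1 were also called with at least 8 guides per gene and with all days in 1 fit, blocked or not. All days in 1 fit also added ERCC3, and the replicate block added TAF1D. Those settings called 46.3%, 41.9% and 51.1% of all genes. Of the 22 genes, 12 were below 0 in both Day 21 libraries and 2 were above 0 in both, GTF3C6 and TAF1. Among the 807 other genes with a GeCKO score that were tested, 610 were below 0 in both and 63 above 0 in both.

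In the 3 called genes the Day 14 means were already below the Day 7 means. At Day 7 no member gene was called in limma, against 3.92% of all genes called lower. Only GTF3C4 had an unadjusted p under 0.05, at 0.033. At Day 14 the same 3 genes were called as at Day 21, 13.6% of the members against 22.1% of all genes, and 7 were called with the replicate block, which called 40.5% of all genes. The Day 21 minus Day 7 difference, taken within each replicate, was called lower for the same 3 genes, against 23.5% of all genes, and for 5 with the replicate block, which called 31.0% of all genes. It was -1.94 and -1.78 for GTF3C4 (adjusted p 5.48e-05), -1.04 and -0.82 for MED14 (adjusted p 0.00694), and -1.11 and -0.80 for SUPT6H (adjusted p 0.00627). GTF3C3 came next with -1.08 and -0.33 (adjusted p 0.0513). From Day 14 to Day 21 the gene mean moved by -0.36 and -1.20 for GTF3C4, by -0.32 and -0.21 for MED14, and by -0.19 and -0.26 for SUPT6H. All days of a replicate share its Day 0 library, so an error in that library enters every day alike. Such an error cancels in a difference between days.

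The median over the 22 gene means was 0.04 and -0.02 at Day 7, -0.26 and -0.11 at Day 14, and -0.28 and -0.09 at Day 21. The Day 21 mean of the 2 medians was -0.19 ± 0.14 (SD, n = 2), and it turned to 0.12 when values were centred on all guides. Other scored genes had Day 21 medians of -0.48 and -0.38. The members thus lay higher by 0.20 and 0.29, with a mean of 0.24 ± 0.064 (SD, n = 2), a difference in which a library constant cancels. This difference was not tested, since an exact sign-flip test of 2 values cannot go below a p of 0.5. Of the other scored genes, 231 of 807 (28.6%) were called lower at Day 21, against 3 of 22 members.

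The deposited table sorts scored genes into those essential and those not essential in the Cas13 screen. The criterion is not stated and may rest on these same fold changes, so the split is a description. Of the 22 members, 10 were typed essential: GTF3C4, MED14, SUPT6H, GTF3C3, TAF2, RTF1, GTF2H3, ERCC3, TAF1D and MED8. These 10 were all below 0 in both Day 21 libraries, with medians of -0.61 and -0.45. The other 471 genes typed essential had medians of -0.78 and -0.68, and 208 of 469 tested (44.3%) were called lower, against 3 of 10. The 12 members typed not essential had medians of -0.09 and 0.08, and none was called, against 23 of 338 (6.80%). SUPT16H was typed not essential, although its mean of -0.61 lay below those of 6 genes typed essential: TAF2, RTF1, GTF2H3, ERCC3, TAF1D and MED8. It was the only member typed not essential with a mean below that of MED8, which was -0.20.

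A GeCKO gene score, named after a Cas9 knockout library and of unstated origin, accompanied every member. It ran from -1.42 for ERCC3 to -0.88 for CDK9. Across the 22 genes it had a Pearson correlation of 0.42 with the Day 21 mean. The points share the same libraries and differ in their number of guides, from 4 to 240. Genes with scores near -1.2 stood far apart at Day 21. GTF3C3 (score -1.20) had a mean of -0.66 and SUPT6H (score -1.18) one of -1.14, while TAF8 (-1.20), TAF1B (-1.22) and MED21 (-1.22) had means of 0.0037, 0.02 and 0.16.

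In part of the member genes, guides on different junctions of the gene gave very different values. A junction was scored as the mean over its guides, up to 8, and 196 of the 206 member junctions had at least 3 guides. Of these, 37 (18.9%) were called lower at Day 21 and none higher, against 25.3% of all 6401 junctions called lower. With the replicate block 62 were called lower and 9 higher, and that fit called 44.1% of all junctions. Limma pooled the spread of junctions completely, with a common standard error of 0.358. A call at this level is therefore close to a size limit, and the called junction nearest to 0 in the whole table stood at -0.89. Of the 37 called junctions, 23 belong to MED14 (10), SUPT6H (12) and GTF3C4 (1). The rest lie in SUPT16H and TAF2 (4 each), RTF1 (3), and ERCC3, GTF3C1 and GTF3C3 (1 each). In 29 junctions both Day 21 libraries were below -1.

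Each junction was next set against the other guides of its own gene, as a test of the difference itself. Of 192 member junctions with enough guides elsewhere in the gene, 23 were lower than the rest (12.0%, against 12% of all junctions tested) and 22 were higher (11.5%, against 9.92%). The members' shares are near those of the table. With the replicate block 37 were lower and 60 higher, and that fit called 46.0% of all junctions tested. With the median of the guides 20 were called, all of them lower and all among the 45, against 11.5% of all junctions tested. The calls fell in 7 genes: MED14, SUPT6H, SUPT16H, TAF2, ERCC3, RTF1 and GTF3C3. Junctions are numbered below 5′ to 3′ along each gene, among the junctions in the table, with hg38 coordinates as the table lists them and the build named in the submitters' processing notes.

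MED14 had the widest spread. Its 22 junctions of at least 3 guides ran from -4.72 to 0.47, and their values in the 2 replicates had a Pearson correlation of 0.96, as a description over junctions that share the gene and the libraries. Junctions 1, 5, 7, 11, 14 and 15 were lower than the rest of the gene. Junctions 3, 6, 8, 10, 12, 16, 21, 22 and 23 were higher. The 2 extremes are neighbours. Junction 5, chrX:40711301-40712185, was the lowest member junction of all, with -1.37 and -2.62 at Day 7, -2.56 and -2.66 at Day 14, and -4.58 and -4.85 at Day 21. Junction 6, chrX:40710129-40711168, was the highest of the gene, with 0.10 and 0.20 at Day 7, 0.53 and 0.12 at Day 14, and 0.76 and 0.18 at Day 21. The first differed from the rest of MED14 by -3.61 and the second by 1.81. Their libraries did not overlap at any day.

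The low junctions of MED14 were spread along the gene. Junction 1 (chrX:40729345-40735197) read -3.05 and -3.88 at Day 21, junction 11 (chrX:40692317-40692707) -3.47 and -3.39, and junction 15 (chrX:40680910-40681851) -3.33 and -4.15. Junction 14 (chrX:40681943-40682602) read -3.24 and -2.94, and junction 7 (chrX:40709459-40709978) -2.63 and -2.64. Each of these had both libraries below -2. Junction 2 held only 2 guides and was not tested, and it read -4.23 and -4.90. The 2 junctions nearest the 3′ end, 22 and 23, read 0.81 and -0.01, and -0.17 and -0.02. Leaving out junction 5 moved the gene mean only to -0.99 and -1.22.

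SUPT6H had 29 junctions of at least 3 guides, from -4.46 to 0.24. Junctions 6, 10, 11, 20, 23, 24, 28 and 29 were lower than the rest, and junctions 3, 5, 8, 9, 12, 16, 22, 25 and 27 were higher. Low and high junctions again lay side by side. Junction 24 (chr17:28697082-28697619) read -2.95 and -3.55 at Day 21, while junction 25 (chr17:28697733-28697905), the highest of the gene, read 0.15 and 0.33. Junction 28 (chr17:28700250-28700345) was the lowest, with -0.59 and -1.72 at Day 7, -2.76 and -3.99 at Day 14, and -3.68 and -5.24 at Day 21. Its difference from the rest of SUPT6H was -3.44. Junction 27, just before it, read 0.35 and -0.50. Leaving out junction 28 left the gene mean at -1.07 and -0.96.

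In SUPT16H a few junctions carried the gene mean. Junctions 1, 2 and 15 were lower than the rest and junction 19 was higher. Junction 2 (chr14:21368441-21369203) read 0.07 and -0.67 at Day 7, -2.24 and -3.50 at Day 14, and -2.82 and -3.19 at Day 21. Junction 1 (chr14:21369355-21369749) read -2.64 and -2.67 at Day 21, and junction 15 (chr14:21358427-21359483) -2.34 and -2.26. Junction 19 (chr14:21353832-21354410), the highest tested, read 0.03 and 0.85. The median over its 19 tested junctions was -0.31, against -0.50 in SUPT6H and -0.64 in MED14.

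TAF2 had 17 junctions from -2.48 to 0.58. Junctions 3, 9 and 13 were lower than the rest, with Day 21 values of -2.13 and -2.82, -1.77 and -2.04, and -1.44 and -1.70. Junction 2 was higher, with 0.10 and 1.05, and it held 5 guides. In ERCC3 the spread came down to a single junction. Junction 7 (chr2:127279375-127280446) read -2.43 and -2.86 at Day 21, and the other 10 had means between -0.66 and 0.38. Without it the gene mean was -0.15 and -0.08, against -0.36 and -0.33 with it. Junction 6 (chr2:127287017-127288659), just before it, was the highest of ERCC3 with 0.63 and 0.13.

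RTF1 had 1 junction lower and 2 higher than the rest. Junction 7 (chr15:41474702-41475524) read -1.32 and -3.46, with the replicates far apart. Junctions 1 (chr15:41417313-41438320) and 2 (chr15:41453048-41457671) read 0.39 and 0.81, and 0.75 and 0.32. In GTF3C3, junction 4 (chr2:196784929-196785440) read -2.05 and -1.46 and was lower than the rest. Without it the gene mean was -0.63 and -0.14. The 1 called junction of GTF3C1, junction 14 (chr16:27493296-27494762), read -0.74 and -1.07 but was not called as differing from the rest of the gene.

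The other member genes had narrow junction spreads. No junction of CDK9, MED21, MED8, TAF1, TAF1B, TAF8, TAF1D, GTF2B, GTF2H3 or GTF3C6 was called at Day 21, either against 0 or against the rest of its gene. In TAF1B the 11 junction means ran from -0.27 to 0.24, and in TAF1 the 7 with at least 3 guides ran from -0.21 to 0.53. Position along the gene was not tested, and MED14, SUPT6H and RTF1 are given as examples that differ. Across their junctions, the Pearson correlation of junction number with the Day 21 mean was 0.30, -0.28 and -0.58. The mean of the junctions in the 5′ part of MED14 was -1.49 and -1.61, against -0.76 and -1.02 in the 3′ part. In SUPT6H the order was the other way, with -0.97 and -0.70 against -1.33 and -1.48. In RTF1 it was 0.03 and -0.38 against -0.78 and -0.72.

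Each junction carries a category in the table whose definition is not stated. In 4 member genes more than 1 category was present. In GTF3C1 the 30 junctions listed as common stood at -0.12 and -0.01 and the 2 listed as fully unique at -0.35 and 0.27. In TAF1B the 1 common junction stood at -0.02 and 0.40 and the 10 fully unique ones at -0.04 and 0.05. In TAF8 the 2 common junctions stood at -0.15 and 0.68 and the 4 partially unique ones at -0.03 and -0.26, and in TAF1 they stood at 0.15 and 0.18 against 0.11 and -0.02. In GTF3C1 and TAF8 the order of the categories differed between replicates.

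At the level of single guides, 145 of 1487 (9.75%) were called lower and 4 (0.269%) higher at Day 21, against 11.1% lower and 0.218% higher among all guides. With the replicate block 249 were called lower and 65 higher, and that fit called 23.4% of all guides. The smallest standard error of a guide was 0.814, and the guide nearest to 0 among all those called lower stood at -2.41. Of the 145, 45 target SUPT6H, 44 MED14 and 21 SUPT16H. Guides called lower made up 25.9% of the MED14 guides, 20.2% of those to SUPT6H and 14.6% of those to SUPT16H, but 1.67% of the 240 to GTF3C1. No guide to CDK9, MED4, MED21, MED30, GTF3C6, TAF13, TAF1B or TAF8 was called. Most of the 145, 126, lay on junctions that were themselves called lower. A junction mean includes its own guides, so this overlap is partly built in and is no separate result. The junctions called lower held 285 guides, of which 27 were above 0 in both Day 21 libraries.

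The deposited values allow a rough view of the numbers behind a guide. After subtraction of a library constant, each fold change is the log2 of 1 whole number divided by another. The smallest Day 0 number that serves all 3 days of a guide is its implied Day 0 number. The true number may be a multiple of it, and any pseudocount would be included. An implied number of 1 at a later day is the lowest possible. The median implied Day 0 number of MED14 guides was 92 in replicate 1 and 118 in replicate 2, and that of SUPT6H guides 96 and 137. At Day 21, 36 member guides in replicate 1 and 41 in replicate 2 were at an implied number of 1, up from 0 and 1 at Day 7. Where the implied numbers are the true ones, the fold change of such guides is set by the Day 0 number, and a larger loss could not be seen.

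Guides are numbered within a junction as the table numbers them. On junction 5 of MED14, 6 of the 7 guides were at or below -1 in both Day 21 libraries. Guide 3 was the lowest, with -1.70 and -3.44 at Day 7, -2.04 and -4.37 at Day 14, and -6.29 and -7.69 at Day 21. Its implied number was 82 at Day 0 and 1 at Day 21 in replicate 1, and 188 and 1 in replicate 2. Guide 8 was the highest, with -1.94 and 0.05 at Day 21, from 72 to 18 and from 88 to 100. Guides on junction 6 ran from guide 5, at -0.89 and -1.29, to guide 3, at 2.52 and 1.23, and neither of these was called.

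On junction 28 of SUPT6H, 5 of 8 guides were below -5 in both Day 21 libraries. Guide 8 was the lowest, with -0.53 and -2.63 at Day 7, -2.37 and -8.76 at Day 14, and -6.62 and -8.49 at Day 21, and it was the lowest member guide of all. Its implied number went from 103 to 1 and from 328 to 1. Guide 2 on the same junction stood at 0.47 and 1.30, from 155 to 206 and from 75 to 202. Guide 3 split the replicates, with -0.43 in replicate 1 and -6.74 in replicate 2. On junction 25, guide 6 stood at -1.44 and -2.59 and guide 7 at 2.29 and 1.34, and neither passed the test.

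Junction 2 of SUPT16H showed the same mixture. Guides 1 to 5 were called lower and guides 6 to 8 were above 0 in both replicates. Guide 1 was the lowest, with -6.48 and -6.61 (implied numbers from 93 to 1 and from 89 to 1), and guide 8 the highest, with 0.50 and 1.24. Guide 2 was called with -6.43 in replicate 1 and -0.06 in replicate 2, so that its mean of -3.24 rests on 1 library. On junction 19 guide 4 was called lower with -4.95 and -2.43, although the junction mean was 0.44, and guide 2 stood at 1.97 and 1.40. On junction 4 of GTF3C3, guide 2 read -5.96 and -5.82 and guide 8 read -0.94 and 2.22.

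Guides called in genes that did not pass were also seen. In TAF1D guide 2 on junction 1 read -3.62 and -4.20, and in GTF2B guide 3 on junction 1 read -1.69 and -3.32. In MED8 guide 2 on junction 1 read -5.61 and -0.97, and in GTF2H3 guide 8 on junction 1 read -0.88 and -5.75. In the guides to MED8 and GTF2H3 the replicates were far apart. The 4 guides called higher were named after their values were seen. They were guide 5 on junction 3 of ERCC3 (0.65 and 5.67), guide 1 on junction 5 of TAF1 (3.48 and 2.46), guide 5 on junction 3 of TAF1 (4.17 and 1.15) and guide 2 on junction 16 of MED14 (3.15 and 2.08). Guide 5 on that same junction 5 of TAF1 was called lower, with -2.95 and -2.65. On that junction the mean of the 8 guides was 0.12.

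Genes of the same pathway outside the symbol pattern give the setting, beside SSRP1 and TBP above. ELOB, an elongin subunit, stood at -0.72 and -0.62 over 16 guides and did not pass (adjusted p 0.0603). XAB2, a splicing and transcription-coupled repair factor, stood at -0.39 and -0.39 over 114 guides (adjusted p 0.152). LARP7, a protein of the 7SK particle that holds P-TEFb inactive, is listed as a non-essential control. It stood at -0.31 and -0.28 over 6 guides (adjusted p 0.237). Of the snRNA promoter factors, SNAPC5 stood at -0.36 and 0.07 over 28 guides and SNAPC2 at 0.26 and 0.20 over 19, and neither passed (adjusted p 0.633 and 0.347). The TFIIIB genes BRF1 and BRF2 stood at -0.21 and 0.08 and at -0.02 and -0.22. NELFB and NELFCD, subunits of the pausing factor NELF, stood above 0 in both replicates, with 0.68 and 0.67 and with 0.59 and 0.50, and did not pass (adjusted p 0.0574 and 0.0844). Among 15 RNA polymerase subunits tested, 4 were called lower (26.7%): POLR2E (-3.88 and -4.45), POLR2I (-1.86 and -2.18), POLR1B (-1.11 and -1.50) and POLR1C (-0.94 and -1.39). The RNA polymerase III subunits POLR3A and POLR3B, with 169 and 177 guides, stood at 0.03 and 0.07 and at 0.12 and 0.04. The median of the members minus that of the polymerase subunits was -0.21 in replicate 1 and -0.05 in replicate 2, a difference with no test.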

How the data were processed

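The data are 8 libraries of guide cassettes: 2 replicates at Day 0, 7, 14 and 21, grouped by the labels. The authors deposited 1 table of log2 fold changes for each guide at each day in each replicate, per the file headers, with a GeCKO gene score of unstated origin that they also deposited. The submitters' processing notes name cutadapt 3.5, Bowtie 1.1.2 and hg38. Read depth, library scaling, any pseudocount and any filter are not given in the sources used here. In all 6 libraries 100% of the values were a constant plus log2 of a whole-number ratio (denominator up to 2000, tolerance 1e-06). With the constant moved, at most 0.308% were.

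Means over the guides of a gene or junction (at least 3 guides), junctions minus the rest of their gene, and single guides were tested against 0 with limma 3.58.1 in R 4.3.3, each day alone, with Benjamini-Hochberg adjustment over the whole table and a threshold of 0.05. The script was tested on simulated data. Replicate numbers from the labels pair the libraries: each fold change uses the Day 0 library of its own number. The deviations of same-numbered libraries correlated at 0.484, 0.411 and 0.647 between days. The shared Day 0 library can by itself give a positive correlation, so these values are no separate support for the pairing. All 22 member genes matched RefSeq by symbol, and their junctions lay inside the gene.

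The members and the lists of related genes were chosen with earlier results of these data known. Every member gene is named, with its values at all days for the 5 lowest and 3 highest. Junctions named are those that differ from the rest of their gene, the lowest, and the extremes of the 5 genes with the widest spread. Guides named are the lowest and the highest on the lowest junctions of the 5 lowest genes and on the extreme junctions of the 3 widest. Any other guide was named after its values were seen. Alternatives were the median of the guides, 3 centrings, a robust fit, all days in 1 fit with and without the replicate block, an implied Day 0 number of at least 50, at least 8 guides per gene (5 per junction), and each replicate alone. Leaving out a gene's lowest junction or guide was added after seeing the data. The result of 1 related gene outside the pattern is not reported here.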

Additional observations from a re-analysis of the deposited data

Results flagged for a closer look

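The effect of the guides at Day 21 differed from that at Day 7 for 3 member genes, by the limma test of the difference within replicates. They are 13.6% of the members, against 23.5% of all genes called lower. The difference in the gene mean was -1.86 for GTF3C4, -0.96 for SUPT6H and -0.93 for MED14, with adjusted p-values of 5.48e-05, 0.00627 and 0.00694, and it was below 0 in 2 of 2 replicates for each. The range of this difference over the replicates was -1.94 to -1.78 for GTF3C4, which rests on 4 guides. All days share the Day 0 library of their replicate, which cancels in this difference, but the scaling of the Day 21 and Day 7 libraries does not. With the median of the guides no member gene was called, and that setting called 3.76% of all genes. Centred on all guides only GTF3C4 was called among the members, against 9.81% of all genes.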

How the results depend on the processing

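The counts of called member genes moved with the summary and the scaling. At Day 21, 3 genes were called, against 0 with the median of the guides, 1 centred on all guides (GTF3C4), 8 with all days in 1 fit, 9 with the replicate block and 6 with at least 8 guides per gene, which leaves out GTF3C4. These settings called 2.04%, 5.15%, 41.9%, 51.1% and 46.3% of all genes. At Day 14 these settings gave 0, 1 (SUPT6H), 6, 7 and 5, against 3, and 7.28%, 14.2%, 33.5%, 40.5% and 46.3% of all genes. For Day 21 minus Day 7 they gave 0, 1 (GTF3C4), 4, 5 and 5, against 3, and 3.76%, 9.81%, 20.3%, 31.0% and 46.6% of all genes. With the median of the guides, 3 member genes had an unadjusted p under 0.05 at Day 21. At Day 7 no setting called a member gene, and 0 to 2 had an unadjusted p under 0.05. With the replicate block, 71 junctions were called against 37, 97 junctions differed from the rest of their gene against 45, and 314 guides were called against 149. Of these, 9, 60 and 65 were higher, against 0, 22 and 4. The median of the guides left 20 of the 45 junction differences. Centred on all guides, the median over member genes was 0.12, and the means turned to 0.14 for GTF2B, 0.25 for GTF3C1, 0.22 for MED30, 0.11 for MED8 and 0.0022 for TAF1D. With the median of the guides the sign turned for GTF3C1 (0.010), GTF3C6 (-0.024), MED30 (0.36), MED8 (0.0090) and TAF1B (-0.013), and it turned for TAF8 (-0.061) where guides with implied Day 0 numbers under 50 were left out. The 2 replicates lay on opposite sides of 0 for CDK9 (-0.087 to 0.353), GTF3C1 (-0.136 to 0.013), MED21 (-0.090 to 0.41), MED30 (-0.378 to 0.206), MED4 (-0.095 to 0.641), TAF13 (-0.208 to 0.448), TAF1B (-0.039 to 0.081) and TAF8 (-0.071 to 0.079). The cause of these changes was not tested. The members stayed above the other scored genes in the median by 0.196 to 0.287 under every alternative run. Depth is not stated. Guides with an implied number of 1 have only a bound where that number is the true one.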
